A study of Homo sapiens with 12 samples.

Results

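The cyclins of G1 and S phase and the cyclin-dependent kinases (CDKs) they bind were followed in prostate cancer cells in which MUC1 was silenced. The 10 genes CCND1, CCND2, CCND3, CCNE1, CCNE2, CCNA2, CCNB1, CDK2, CDK4 and CDK6 were chosen by name and found by Ensembl gene ID among the 58037 genes of the count table, where each had at least 1 read. CCNB1 is a mitotic cyclin and stands in the list beside the G1 and S genes.

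A cyclin has no enzymatic activity of its own and switches on the CDK it binds. D cyclins with CDK4 or CDK6 and then E cyclins with CDK2 phosphorylate the RB proteins in G1, which frees E2F factors to transcribe the genes of DNA replication. Cyclin A2 with CDK2 acts through S phase, cyclin B1 with CDK1 drives entry into mitosis, and p21 and the INK4 proteins hold these kinases back.

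Both lines, DU-145 and LNCaP-AI, carried a MUC1 shRNA that doxycycline (DOX) switches on. Messenger RNA was sequenced after 7 days of DOX (500 ng/ml) or of vehicle alone. DU-145 is an androgen-insensitive prostate cancer line, and LNCaP-AI was derived by long culture of C4-2B cells, themselves from LNCaP, without androgen. There were 3 libraries in each of 4 groups, 12 in all, from cells that the labels place in phenol red-free medium with charcoal-stripped serum. The study's methods describe that medium for LNCaP-AI, but RPMI1640 with heat-inactivated fetal bovine serum for DU-145. Which of these the DU-145 libraries came from is therefore not certain. Cultures were grown in triplicate, and since nothing more is said of how separate they were, p-values measure the spread between these libraries. The labels call the vehicle groups shCTL and the DOX groups shMUC1, whereas in the study's methods every group carries the same puromycin-selected vector with a DOX-inducible MUC1 shRNA. Libraries of cells given DOX but carrying a scrambled shRNA were not analysed here, so effects of DOX and of the shRNA cannot be told apart. In bulk RNA, fewer cycling cells and less RNA per cell cannot be told apart either.

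Total counts ranged from 10423437 to 13544153 in DU-145 and from 16569613 to 26961777 in LNCaP-AI libraries. The target was lower in every DOX library, with 59 to 74 MUC1 counts in DU-145 vehicle libraries against 3 in each DOX library, and 25 to 52 against 3 to 8 in LNCaP-AI. The markers of LNCaP-derived cells FOLH1, KLK2, KLK3 and HOXB13 had no counts in any DU-145 library and were present in every LNCaP-AI library. Along their first principal component (82.5% of the variance) the LNCaP-AI libraries were not split by DOX. Vehicle 1, DOX 2 and DOX 3, called side A here, stood apart from vehicle 2, vehicle 3 and DOX 1, called side B. The DU-145 markers CAV1, CAV2, CD44 and EGFR followed this division. CAV1 was at 0.0591 to 0.291 CPM (counts scaled to a common library size) on side A and at 78.8 to 91.8 on side B. The 6 DU-145 markers summed to 162 to 186 CPM on side A, with CD44 at 0 in vehicle 1, and to 563 to 637 on side B, against 1903 to 2282 in DU-145 libraries. VIM and ITGB4 did not follow the division. VIM was at 29.3, 28.9 and 32.1 CPM in vehicle 1, 2 and 3. ITGB4 was at 25.5 to 26.3 CPM on side A and 20.6 to 27.35 on side B. What the division reflects was not tested, and for the cyclins and CDKs and the regulators named with a fall or rise in LNCaP-AI the difference within each side is given as well.

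The sequence before the start site is shown for CCNA2 and CCNB1, which moved together in both lines, and for CDK4, a known target of the transcription factor MYC. RefSeq (GRCh38.p14) start sites were matched for 6 of the 10 genes. Capitals mark matches, on either strand, to an E-box (CACGTG, the site MYC and MAX bind), a CCAAT box (CCAAT, or ATTGG on the other strand) or 4 E2F spellings (TTCCCGC, its variant TTGGCGC, its variant TTCGCGC and the last spelling, TTGCCGC). No matches overlapped in these genes. A CHR was searched only as TTTGAA, which was not found in them, and variant spellings of a CHR were not searched. Each runs 5′ to 3′ on the gene's strand and leaves out bases of any annotated exon of the gene. They are chr4:121823884-121824133 (minus), chr5:69166900-69167134 (plus) and chr12:57752448-57752560 (minus). The CDK4 stretch lies inside the annotated span of the gene (57747727 to 57756013), so it is not upstream of all CDK4 transcripts.
CCNA2: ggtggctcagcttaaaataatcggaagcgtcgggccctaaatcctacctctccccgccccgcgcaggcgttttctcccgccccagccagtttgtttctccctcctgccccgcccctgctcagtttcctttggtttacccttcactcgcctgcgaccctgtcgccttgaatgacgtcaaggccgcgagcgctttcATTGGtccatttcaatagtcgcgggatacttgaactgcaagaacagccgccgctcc
CCNB1: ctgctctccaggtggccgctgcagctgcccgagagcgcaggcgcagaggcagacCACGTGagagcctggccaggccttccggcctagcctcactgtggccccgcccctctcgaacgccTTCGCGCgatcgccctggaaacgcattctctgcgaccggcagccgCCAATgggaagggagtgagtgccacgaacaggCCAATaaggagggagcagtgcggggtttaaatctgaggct
CDK4: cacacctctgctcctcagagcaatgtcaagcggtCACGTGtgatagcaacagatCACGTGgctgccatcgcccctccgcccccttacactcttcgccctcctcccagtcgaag

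CCNA2 held 1 CCAAT box, 56 to 52 bases before its start. CCNB1 held 2 CCAAT boxes, 1 E2F match and 1 E-box. In the full 250 bases before its start CDK4 held 3 E-boxes, of which 2 are in the shorter stretch printed. An E-box of this spelling occurs in 6.34% of the 35116 windows of 250 bases before RefSeq starts and a CCAAT box in 32.01%. Any of the E2F spellings occurs in 10.9% and a CHR spelled TTTGAA in 13.3%. None of these letters occurred in the windows of CCNE1 and CDK6, and the windows of CCND3 held 1 CCAAT box at each of 2 of its 3 starts. A match is a description of the letters and not of binding.

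Levels can be set against each other only per length, and are given here as CPM per kilobase of exon, normalized over all 12 libraries. In vehicle libraries CCNB1 and CCND1 led in both lines, at 175 ± 14.2 and 123 ± 5.57 (SD, n = 3) in DU-145 and 161 ± 12.6 and 89.9 ± 1.149 (SD, n = 3) in LNCaP-AI. With DOX the order of these leaders turned, to 112 ± 5.31 for CCNB1 and 130 ± 7.28 for CCND1 in DU-145, and to 82.2 ± 15.7 and 149 ± 8.27 in LNCaP-AI. CCNA2 came next in vehicle libraries, at 53.6 ± 3.47 in DU-145 and 46.9 ± 4.56 in LNCaP-AI, where it changed places with CDK4 when the longest transcript was the length. CDK4 stood below CDK2 in DU-145 vehicle libraries, at 16.0 ± 1.58 against 28.3 ± 0.523, and above it in LNCaP-AI, at 34.3 ± 0.829 against 24.2 ± 1.90. CCND3, CCNE1, CCNE2 and CDK6 had means between 3.18 and 12.6 in all 4 groups. CCND2 was last everywhere, with 2 to 6 counts per DU-145 library and 3 to 19 per LNCaP-AI library. Neighbours whose ranges overlapped were CCNE1 and CCND3 in DU-145 vehicle libraries, CCNE1 and CDK6 in LNCaP-AI vehicle libraries, and in LNCaP-AI DOX libraries CDK4, CCNA2 and CDK2 along the order and CCNE2 with CDK6. With the longest transcript as length CCNA2 also moved from rank 3 to 5 in DU-145 and from 4 to 6 in LNCaP-AI with DOX. CCND3 moved from rank 7 to 6 in both DU-145 groups and from 6 to 4 in LNCaP-AI with DOX. Both leaders held their ranks in all 4 groups.

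**Figure D1:**
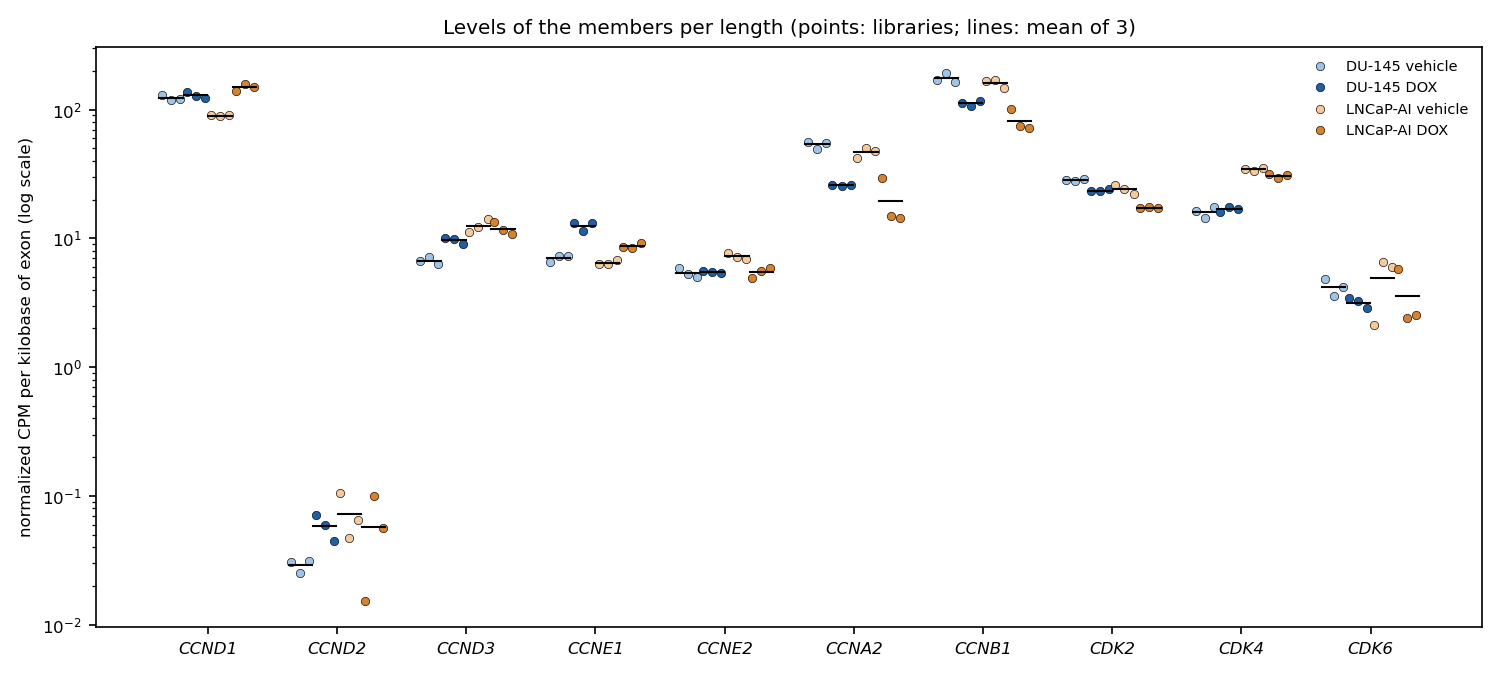
Level of each gene in normalized CPM per kilobase of exon (log axis) in the 12 libraries, in 4 groups of 3, with a line at each mean. CCNB1 was above CCND1 in both vehicle groups and below it in both DOX groups, and CCND2 lay at 0.106 or lower throughout.

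In DU-145 cells, DOX was followed by higher CCND3 and CCNE1 and by lower CCNA2, CCNB1, CDK2 and CDK6. Of these, CCNA2 moved most, to 0.486 of its vehicle level, and CCNE1 rose 1.79-fold. CCND1, CCNE2 and CDK4 did not pass the test and CCND2 was too low to be tested. Thus 2 of 9 tested genes were higher, where 26.3% of all 13644 genes tested were, and 4 of 9 were lower, where 25.3% were (edgeR quasi-likelihood test, Benjamini-Hochberg adjusted p under 0.05). The median log2 fold change of the 9 was 0.025, against 6e-04 for all genes. The 6 calls stayed at 6 whichever library was left out.

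In LNCaP-AI cells, CCND1 and CCNE1 were higher with DOX and CCNE2, CCNA2, CCNB1 and CDK2 were lower. CCND1 rose 1.63-fold, CCNA2 fell to 0.411 and CCNB1 to 0.5002 of the vehicle level. CCND2, CCND3, CDK4 and CDK6 did not pass the test. This was 2 of 10 genes higher, beside 7.22% of 16030 genes, and 4 of 10 lower, beside 5.52%, with a median log2 fold change of -0.43 against -0.054 for all genes. The calls rest on few libraries. For the fits that left out a library, the number called over all genes is not given here. A fall in the count below therefore cannot be read as particular to these genes. The count fell to 3 (CCND1, CCNB1 and CDK2) without any 1 of the vehicle libraries, to 4 without DOX 1, when CCNA2 was also called, and to 0 without DOX 2 or without DOX 3, when 6 members still had an unadjusted p under 0.05 in edgeR. Fits added after the data were seen called 8 of the members with the side A libraries alone, where 7486 of 14026 genes were called, and 5 with those of side B, where 2465 of 15109 were. In these fits a lone vehicle or DOX library is taken to vary like the pair it is set against. With side A the sign of CDK6 turned, to a log2 fold change of 0.21 against -0.47 over all libraries.

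**Figure D2:**
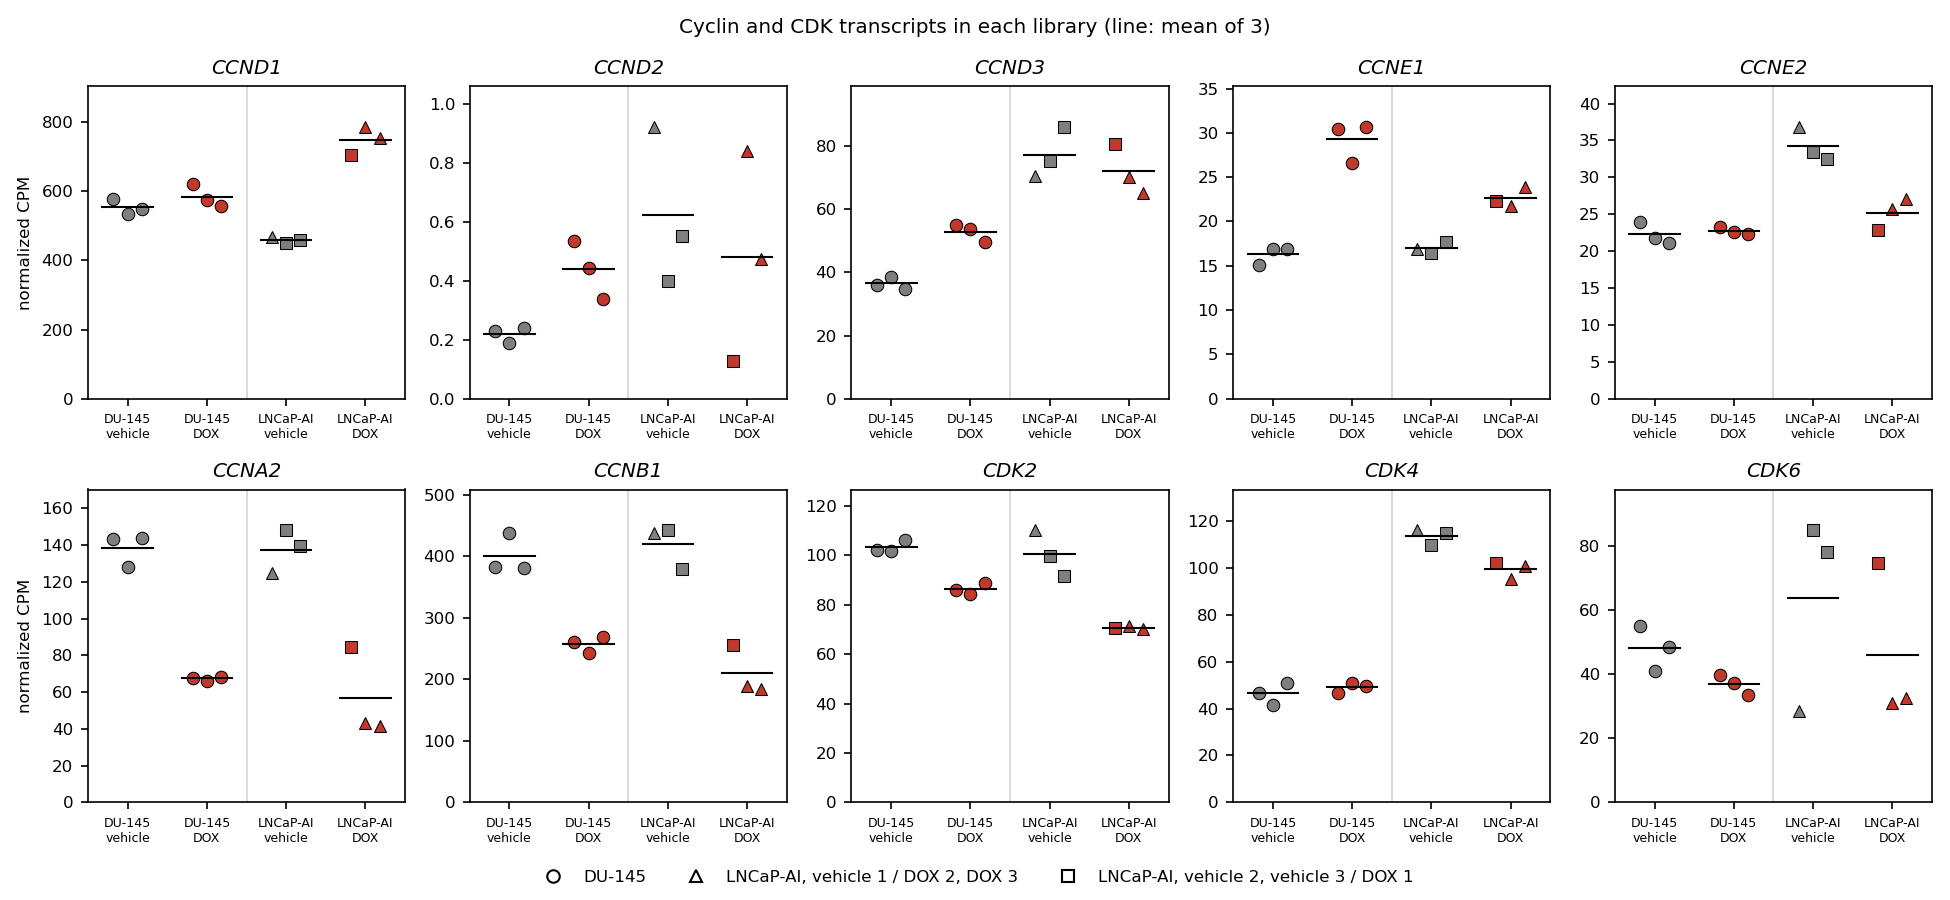
Normalized CPM of each gene (a panel per gene, linear axis from 0) in every library, with grey for vehicle, red for DOX and a line at the mean of 3. Circles are DU-145, triangles the LNCaP-AI libraries of side A and squares those of side B. DOX libraries of both lines lie below their vehicle libraries for CCNA2, CCNB1 and CDK2, and CDK6 in LNCaP-AI separates by symbol and not by colour.

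CCNA2, CCNB1 and CDK2 fell in both lines. CCNA2 (chromosome 4, 121816444 to 121823883, as all gene positions here in GRCh38 from GENCODE 44), whose cyclin carries CDK2 through S phase, was at 143, 128 and 144 CPM in DU-145 vehicle libraries and at 67.8, 66.0 and 68.4 with DOX. The DOX libraries lay close together, far below every vehicle library, and the log2 fold change was -1.04 (SE 0.0708, adjusted p = 6.7e-10). In LNCaP-AI it was at 125, 148 and 140 CPM with vehicle and at 84.7, 43.3 and 41.8 with DOX, where DOX 1, of side B, was the highest DOX library and still below all vehicle libraries. The log2 fold change of -1.28 (SE 0.292, adjusted p = 0.0409) was -1.55 within side A and -0.76 within side B.

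CCNB1 (chromosome 5, 69167135 to 69178245), the mitotic partner of CDK1, was at 383, 438 and 380 CPM in DU-145 vehicle libraries and at 261, 242 and 269 with DOX, a log2 fold change of -0.64 (SE 0.0746, adjusted p = 8.5e-07). LNCaP-AI libraries were at 438, 442 and 379 CPM with vehicle and 257, 189 and 185 with DOX, a log2 fold change of -0.999 (SE 0.152, adjusted p = 0.0171). The groups did not overlap in either line, and DOX 1 was again the least lowered, with -1.23 within side A and -0.68 within side B. The summed level of 6 proliferation markers moved the same way, from 3334 to 3513 CPM with vehicle to 2396 to 2587 with DOX in DU-145, and from 1808 to 2021 to between 749 and 1285 in LNCaP-AI, where DOX 1 was again highest. Within the DU-145 sum PCNA and MCM2 did not fall with the rest, at log2 fold changes of -0.043 and 0.074, neither called. The part of these markers in the fall of the cyclins was not tested.

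CDK2 (chromosome 12, 55966781 to 55972789), the kinase of the E and A cyclins, changed less. It was at 102, 102 and 106 CPM in DU-145 vehicle libraries and 86.1, 84.5 and 88.7 with DOX, a log2 fold change of -0.26 (SE 0.0665, adjusted p = 0.00302). In LNCaP-AI the DOX libraries were nearly equal, at 70.5, 71.3 and 70.2 CPM, below vehicle libraries at 110, 99.8 and 91.8. The log2 fold change there was -0.51 (SE 0.0913, adjusted p = 0.0233), and it was -0.64 and -0.44 within sides A and B. Exons of CCNA2 overlap those of EXOSC9, and of CDK2 those of PMEL, on the opposite strand. The libraries were stranded, but the strand setting of the counting is not given in the sources used here, so reads there cannot be assigned.

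The E cyclins, which activate CDK2 late in G1, moved apart from each other. CCNE1 (chromosome 19, 29811991 to 29824312) was at 15.1, 16.9 and 17.0 CPM in DU-145 vehicle libraries and at 30.5, 26.6 and 30.7 with DOX. Every DOX library was above every vehicle library, with a log2 fold change of 0.84 (SE 0.0975, adjusted p = 7.7e-07). The values in LNCaP-AI were 16.9, 16.5 and 17.7 CPM with vehicle and 22.3, 21.7 and 23.9 with DOX, again without overlap, a log2 fold change of 0.41 (SE 0.0990, adjusted p = 0.0478) that was 0.43 within side A and 0.38 within side B. This call was lost without any 1 LNCaP-AI library, with adjusted p from 0.0533 to 0.209.

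CCNE2, on chromosome 8, stayed at 24.0, 21.8 and 21.1 CPM with vehicle and 23.2, 22.6 and 22.3 with DOX in DU-145, a log2 fold change of 0.025 (95% interval -0.17 to 0.22, adjusted p = 0.842). In LNCaP-AI it was at 36.9, 33.4 and 32.5 CPM with vehicle and lower with DOX, at 22.9, 25.7 and 27.1, a log2 fold change of -0.44 (SE 0.105, adjusted p = 0.0448) with -0.48 and -0.52 within sides A and B. This call too was lost without any 1 LNCaP-AI library, with adjusted p from 0.0577 to 0.173. Its exons overlap those of INTS8 on the opposite strand by 1629 bases.

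On the scale of CPM per kilobase, the share of CCNE1 in the sum of both E cyclins was 53.0%, 58.0% and 59.0% in DU-145 vehicle libraries and 70.1%, 67.8% and 71.05% with DOX. The share in LNCaP-AI was 45.1%, 46.8% and 49.4% with vehicle and 63.5%, 60.2% and 61.2% with DOX. The groups did not overlap in either line, but 3 libraries against 3 cannot give an exact two-sided permutation p below 0.1. The summed level rose from 12.4 ± 0.105 to 18.02 ± 0.906 CPM per kilobase (SD, n = 3) in DU-145, and was 13.7 ± 0.295 and 14.2 ± 0.802 in LNCaP-AI, so there the pair changed in makeup with nearly the same total.

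Among the D cyclins, which link growth signals to CDK4 and CDK6, a different gene rose in each line. CCND1 (chromosome 11, 69641156 to 69654474) was at 576, 533 and 548 CPM in DU-145 vehicle libraries and at 620, 572 and 557 with DOX, with overlap and a log2 fold change of 0.078 (95% interval -0.072 to 0.23, adjusted p = 0.385). LNCaP-AI cells had 467, 448 and 459 CPM with vehicle and 703, 785 and 752 with DOX. All DOX libraries were well above the narrow vehicle range, with a log2 fold change of 0.70 (SE 0.0775, adjusted p = 0.0123) that was 0.72 within side A and 0.63 within side B. The adjusted p became 0.0854 without DOX 2 and 0.0829 without DOX 3.

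CCND3 (chromosome 6, 41934934 to 42050357) was at 36.0, 38.65 and 34.8 CPM in DU-145 vehicle libraries and rose to 54.9, 53.5 and 49.6 with DOX, without overlap, a log2 fold change of 0.53 (SE 0.0784, adjusted p = 1.4e-05). In LNCaP-AI the groups overlapped, at 70.4, 75.0 and 86.0 CPM with vehicle and 80.4, 70.1 and 65.2 with DOX, and the log2 fold change was -0.10 (95% interval -0.39 to 0.19, adjusted p = 0.617). Within the sides it was -0.058 and 0.0016. CCND1 made up most of the D cyclin level per kilobase of exon. Its share was 94.8% ± 0.403 in DU-145 vehicle and 93.0% ± 0.197 in DOX libraries (SD, n = 3). In LNCaP-AI it was 87.7% ± 1.152 and 92.6% ± 1.06 (SD, n = 3). CCND3 has 5761 bases of exon but a longest transcript of 2394, against 4761 and 4238 for CCND1. The share of CCND1 is therefore lower when the longest transcript is the length.

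CCND2 (chromosome 12, 4269771 to 4305353) had 3, 2 and 3 counts in DU-145 vehicle and 6, 6 and 4 in DOX libraries, at or near the floor of 3 counts, which covers counting error only. In LNCaP-AI it had 19, 7 and 15 counts with vehicle and 3, 14 and 8 with DOX. The groups overlapped and the log2 fold change of -0.41 had a 95% interval from -2.06 to 1.24 (adjusted p = 0.710), so no difference was detectable at this depth. It was -0.48 within side A and -1.33 within side B. Part of its exons is shared with an overlapping gene on the same strand.

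CDK4 (chromosome 12, 57747727 to 57756013), a catalytic partner of the D cyclins, did not pass the test in either line. It was at 46.8, 41.6 and 51.1 CPM with vehicle and 46.8, 50.9 and 49.6 with DOX in DU-145, a log2 fold change of 0.077 (95% interval -0.096 to 0.25, adjusted p = 0.463). In LNCaP-AI all DOX libraries, at 102, 95.3 and 101 CPM, were below vehicle libraries at 116, 110 and 115, by a log2 fold change of -0.20 (95% interval -0.37 to -0.023, adjusted p = 0.122). It was -0.24 within side A and -0.14 within side B. DESeq2 gave the difference over all libraries an adjusted p of 0.0347, and the side A libraries alone 0.00784 in edgeR. Exons of CDK4 overlap those of TSPAN31 on the opposite strand by 891 bases.

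MYC, whose protein can activate CDK4, was at 88.6 to 95.3 CPM in DU-145 vehicle libraries and rose to 138 to 139 with DOX, a log2 fold change of 0.59 (SE 0.0660, adjusted p = 4.5e-07). Its level in LNCaP-AI was 291 to 319 CPM with vehicle and 278 to 309 with DOX, a log2 fold change of -0.067 (95% interval -0.26 to 0.12, adjusted p = 0.612) that was -0.052 within side A and -0.0074 within side B. The responses differed by -0.63 log2 units between the lines (adjusted p = 0.00377), whereas for CDK4 the difference was -0.24 (95% interval -0.48 to 0.0034, adjusted p = 0.203).

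CDK6 (chromosome 7, 92604921 to 92836573), the other D cyclin kinase, was at 54.9, 40.8 and 48.3 CPM in DU-145 vehicle libraries and at 39.6, 37.3 and 33.5 with DOX, all below the lowest vehicle library. The log2 fold change was -0.39 (SE 0.0980, adjusted p = 0.00256), which became an adjusted p of 0.557 when all 12 libraries shared a fit. In LNCaP-AI it was at 28.4, 84.7 and 77.9 CPM with vehicle and 74.7, 31.0 and 32.5 with DOX. The high libraries were the 3 of side B and the low ones the 3 of side A, whatever the treatment, so the log2 fold change of -0.47 had a 95% interval from -1.73 to 0.79 (adjusted p = 0.591). Within side A it was 0.16 and within side B -0.12. Side A was lower than side B by 1.51 log2 units among vehicle and by 1.23 among DOX libraries, whereas no other member but CCND2, near the floor, differed by more than 0.99 between the sides in either treatment.

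**Figure D3:**
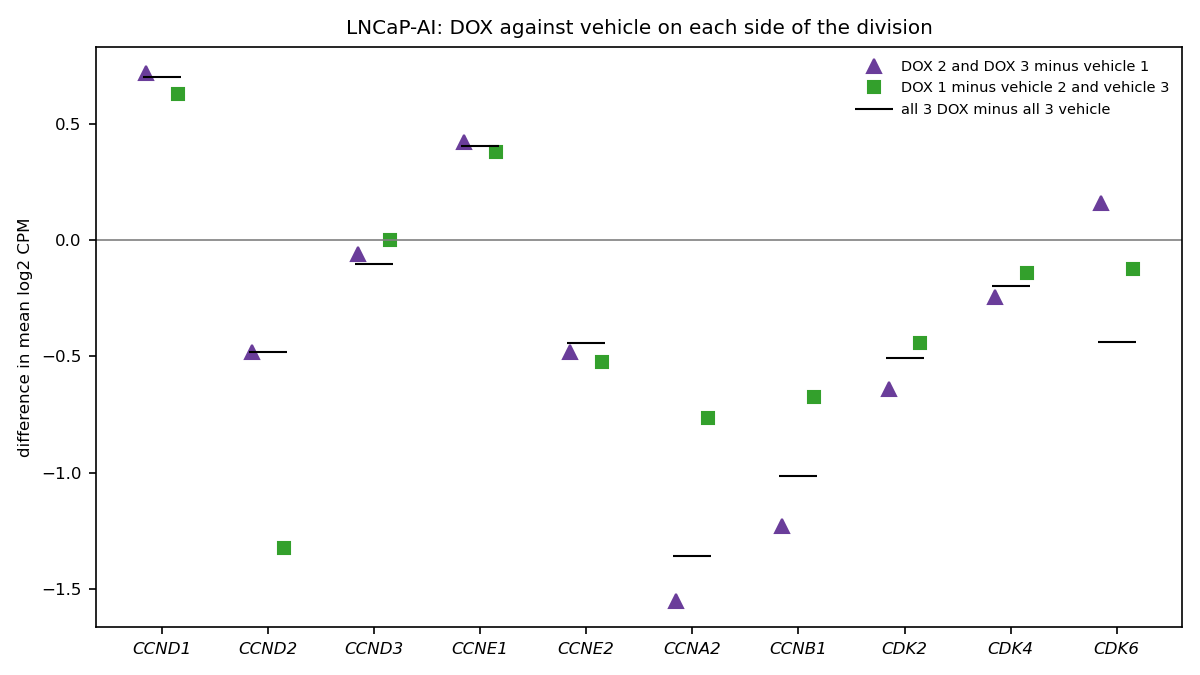
Difference in mean log2 CPM between DOX and vehicle libraries of LNCaP-AI for each gene, within side A (triangles), within side B (squares) and over all libraries (short lines). CCND1 and CCNE1 are above 0 and CCNE2, CCNA2, CCNB1, CDK2 and CDK4 below 0 on both sides, and CDK6 lies on either side of 0.

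**Figure D4:**
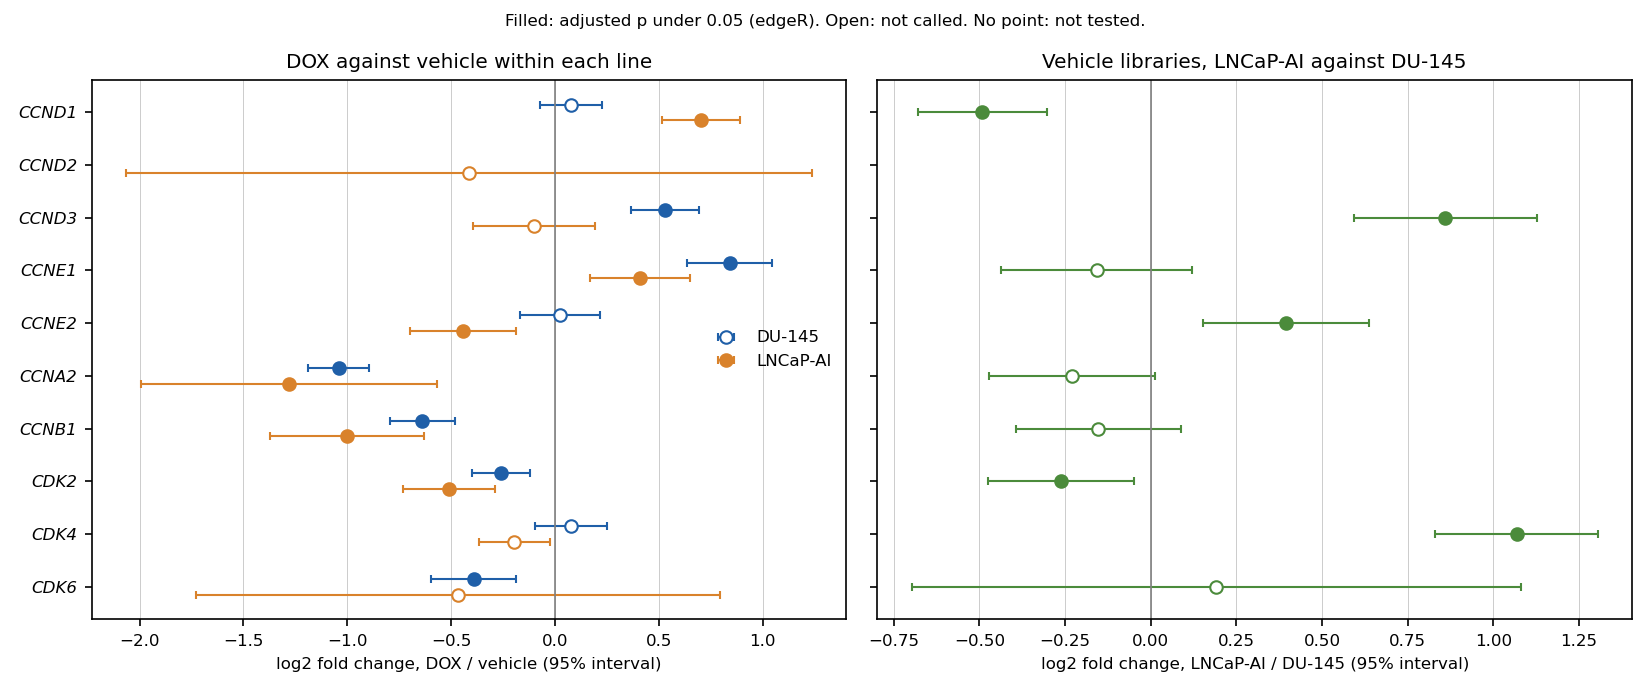
Log2 fold change of each gene with its 95% interval, for DOX against vehicle in both lines (left) and for LNCaP-AI against DU-145 vehicle libraries (right), where filled points have an adjusted p under 0.05. CCND1, CCND3 and CCNE2 have intervals that do not overlap between the lines on the left, and CDK4 is farthest from 0 on the right.

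Whether the lines responded differently was tested as an interaction over all 12 libraries. It was called for CCND1, at 0.66 log2 units higher in LNCaP-AI (SE 0.0969, adjusted p = 0.00318), and for CCND3, with -0.60 (SE 0.146, adjusted p = 0.0311). This was 1 of 10 genes in each direction, where 5.43% of 16800 genes had a higher and 3.76% a lower DOX effect in LNCaP-AI. CCND1 was called whichever library was left out, and CCND3 in 4 of 12 such fits (without DU-145 vehicle 2 or DOX 3, or LNCaP-AI vehicle 1 or DOX 1), with adjusted p up to 0.0839 in the others. With side A libraries alone 7 members were called, among them CCNA2 at -0.43 and CCNB1 at -0.51, beside 3635 of 15660 genes, and with side B alone 3, beside 2449 of 16112 genes. With side B CCNA2 was at 0.29 and CCNB1 at -0.030, neither called. Over all libraries they were at -0.21 (95% interval -0.90 to 0.49) and -0.33 (95% interval -0.71 to 0.061), and leaving out DOX 1 alone gave -0.62 and -0.50, both called. For CCNE1 the difference was -0.40 (95% interval -0.67 to -0.13, adjusted p = 0.0670) and for CCNE2 -0.43 (95% interval -0.71 to -0.16, adjusted p = 0.0560).

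At baseline the lines differed mainly in CDK4 and CCND3. CDK4 was 2.10-fold higher in LNCaP-AI than in DU-145 vehicle libraries, at a log2 fold change of 1.07 (SE 0.101, adjusted p = 1.0e-04), CCND3 was higher by 0.86 (SE 0.113, adjusted p = 4.8e-04) and CCNE2 by 0.40 (SE 0.103, adjusted p = 0.0119). CCND1 was lower by a log2 fold change of -0.49 (SE 0.0797, adjusted p = 0.00130) and CDK2 by -0.26 (SE 0.0910, adjusted p = 0.0370). Thus 3 of 9 tested genes were higher in LNCaP-AI, beside 35.0% of 15628 genes, and 2 of 9 lower, beside 30.2%, which is near the background in both directions. Line, library batch and, if it differed, culture medium cannot be told apart here. CCNE1, CCNA2 and CCNB1 did not pass the test, with log2 fold changes of -0.16 (95% interval -0.44 to 0.12), -0.23 (-0.47 to 0.013) and -0.15 (-0.39 to 0.088).

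For CDK6 the baseline log2 fold change was 0.19 over all vehicle libraries (95% interval -0.70 to 1.08). Set against the DU-145 mean with no test, LNCaP-AI vehicle 1 was at -0.99 and the mean of vehicle 2 and vehicle 3 at 0.56 on the log2 CPM scale. The share of CDK6 in the summed level of CDK4 and CDK6 per kilobase was 22.9%, 19.9% and 19.3% in DU-145 vehicle libraries and 5.83%, 16.3% and 14.6% in LNCaP-AI, where vehicle 1 was lowest. CDK2 was called at baseline in 2 of 6 fits that left out a library, losing its call without any library but DU-145 vehicle 2 or LNCaP-AI vehicle 1, and CCNE2 had an adjusted p of 0.0636 without DU-145 vehicle 3.

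The regulators around these genes were counted from lists. Of 6 tested CDK inhibitors, 1 was higher and 1 lower with DOX in DU-145, and 2 were higher and 1 lower in LNCaP-AI, with median log2 fold changes of 0.011 and 0.38 beside 6e-04 and -0.054 for all genes. These and the counts that follow stand beside 26.3% of all genes higher and 25.3% lower in DU-145, and 7.22% higher and 5.52% lower in LNCaP-AI, so 1 of 6 in DU-145 is below the share of all genes in each direction. CDKN1A, which encodes p21, rose from 40.7 ± 3.07 to 171 ± 3.89 CPM in DU-145 and from 74.1 ± 6.69 to 848 ± 99.04 in LNCaP-AI (SD, n = 3), a difference in response of 1.48 log2 units (SE 0.144, adjusted p = 4.6e-04). CDKN2B (p15) rose in LNCaP-AI, with a log2 fold change of 2.60 (adjusted p = 0.0123), and was at -0.22 in DU-145 (adjusted p = 0.0837), an interaction of 2.86 (adjusted p = 2.8e-04). CDKN2C (p18) fell in both lines, by 0.35 and 0.96 on the log2 scale. Within sides A and B the difference was 3.55 and 3.34 for CDKN1A, 2.44 and 2.24 for CDKN2B, and -1.26 and -0.85 for CDKN2C. At baseline CDKN2A and CDKN2B were lower in LNCaP-AI by log2 fold changes of -4.31 and -4.58, at 10.99 against 218 and 0.901 against 21.6 CPM.

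Of 13 RB and E2F genes, 2 were higher and 6 lower with DOX in DU-145, and 1 higher and 4 lower in LNCaP-AI, with medians of -0.18 and -0.54. RBL1, which encodes the RB relative p107, fell by 1.38 and 1.71 on the log2 scale, and E2F7, a repressor of the family, by 0.60 and 1.14. E2F1 fell by 0.21 in DU-145 and 0.82 in LNCaP-AI, with an interaction of -0.57 (adjusted p = 0.0405). In LNCaP-AI each of these was lower on both sides, with -2.11 and -1.21 within sides A and B for RBL1, -1.43 and -0.69 for E2F7 and -1.02 and -0.59 for E2F1. Of 10 genes of CDK phosphorylation and assembly, 3 were higher and 3 lower in DU-145 and 5 lower in LNCaP-AI, with medians of -0.15 and -0.68. CDC25A, a phosphatase that activates CDK2, rose by 0.71 on the log2 scale in DU-145 and fell by 0.64 in LNCaP-AI, and this difference of -1.32 was called (SE 0.171, adjusted p = 0.00172). It was -0.75 within side A and -0.38 within side B of LNCaP-AI. In DU-145 the 2 of 13 higher RB and E2F genes are below the share of all genes, and 3 of 10 in each direction is near it.

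Of 11 genes of cyclin turnover, 5 were higher and 5 lower in DU-145 and 1, CCNF, was lower in LNCaP-AI, with medians of -0.018 and -0.13. That 1 of 11 is near the 5.52% of all genes lower in LNCaP-AI, and CCNF was at -1.23 within side A and -0.64 within side B. SKP2, which marks p27 for destruction, fell in DU-145 by 0.32 on the log2 scale. Among 6 tested other cyclins and CDKs, 1 was higher and 4 lower in DU-145 and 2 lower in LNCaP-AI, with medians of -0.59 and -0.32. In DU-145 and LNCaP-AI, CDK1, the kinase bound by cyclin B1, fell by 0.43 and 0.88 on the log2 scale, and CCNB2, the other mitotic B cyclin, by 0.72 and 1.14. Within sides A and B of LNCaP-AI they were at -1.17 and -0.75 and at -1.37 and -0.89. CCNG1 and CCNG2, which are induced under stress in many cells, fell in DU-145 by 0.81 and 0.99. Of 7 genes of the DREAM, B-MYB and FOXM1 complexes, 1 was higher and 3 lower in DU-145 and 4 were lower in LNCaP-AI, with medians of -0.18 and -0.99. FOXM1, an activator of G2 genes, fell by 0.24 and 1.10 on the log2 scale, with an interaction of -0.82 (adjusted p = 0.0456), and was at -1.42 within side A and -0.66 within side B. Of 6 proliferation markers 4 were lower in DU-145 and 2 in LNCaP-AI, with medians of -0.41 and -1.13.

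Between the lines, the DOX effect was higher in LNCaP-AI for 2 of 6 CDK inhibitors, 1 of 11 turnover genes and 2 of 6 other cyclins and CDKs, beside 5.43% of all genes. It was lower for 2 of 13 RB and E2F genes, 3 of 10 genes of CDK phosphorylation and assembly, 3 of 7 of the DREAM group and 1 of 6 proliferation markers, beside 3.76% of all genes. No other gene of these lists was called. At baseline 35.0% of all genes were higher and 30.2% lower in LNCaP-AI. Of CDK inhibitors 2 were higher and 3 lower of 6, and the counts were 5 and 1 of 13 for RB and E2F genes, 2 and 5 of 10 for CDK phosphorylation and assembly, 4 and 4 of 11 for turnover, 2 and 2 of 6 for other cyclins and CDKs, 4 and 1 of 7 for the DREAM group, and 2 and 4 of 6 for proliferation markers. The counts for turnover and for other cyclins and CDKs are near the shares of all genes.

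**Figure D5:**
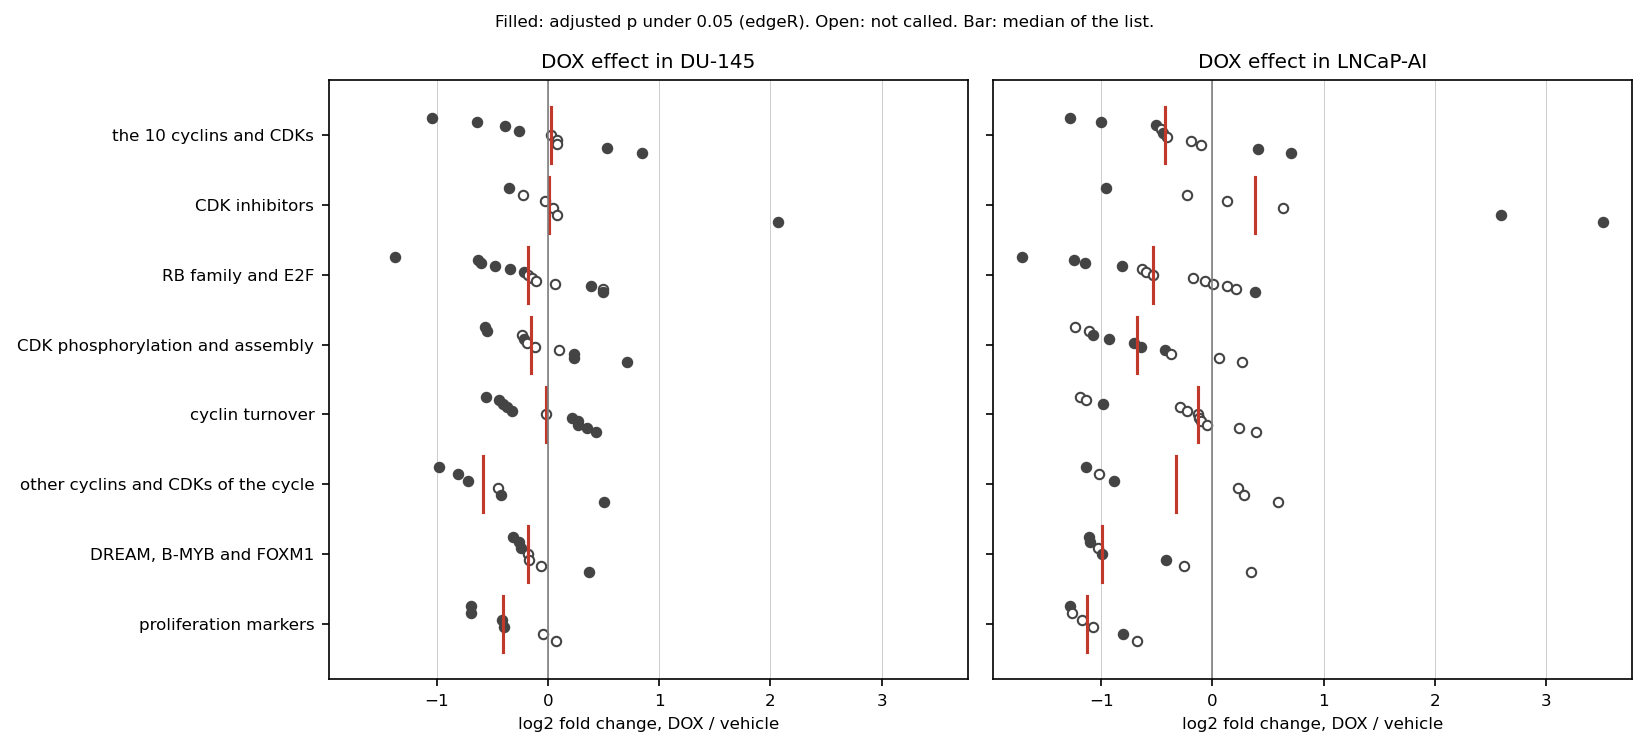
Log2 fold change with DOX of each tested gene of the lists (points, filled where the adjusted p is under 0.05) in DU-145 (left) and LNCaP-AI (right), with a red bar at each list's median. The highest point of either panel is CDKN1A among the CDK inhibitors, at 2.07 in DU-145 and 3.51 in LNCaP-AI.

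For each member the genes of most similar pattern were taken from 12198 genes with at least 1 CPM in both lines, by Pearson's r of log2 CPM over the 12 libraries after each line's mean was removed. These points share libraries, treatment groups and the LNCaP-AI division, so r is a description. CDK6 in LNCaP-AI followed that division and not the treatment, so its r can reflect the division. CCNA2 was closest to KIF15, SPDL1 and QSER1, CCNB1 to HJURP, CCNB2 and NDC80, and CDK2 to CDK1, BRCA1 and FAM76B, each with r = 0.99. CCND1 was closest to CEMIP2 (r = 0.98), KDM5B and RIT1, CCND3 to SERINC2 (r = 0.97), RUBCN and ABL1, CCNE1 to VGLL4 (r = 0.98), UBA6-DT and SNHG32, and CCNE2 to BDP1 (r = 0.96), HUNK and FBLN1. CDK6 was closest to DDX60L (r = 0.99), CCDC50 and DDHD1, and CDK4 had the weakest likeness, with SCML1 at 0.93 and LSM4 and an unnamed gene at 0.88. CCND2 was below 1 CPM and was left out.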

How the data were processed

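Raw read counts per gene were deposited by the authors for 12 libraries of a stranded mRNA kit. Per the submitters' processing notes, CASAVA 1.8.2, STAR 2.7.0, DESeq2 1.24.0 and build GRCh38.p7 were used, and the counting tool and its strand setting are not given in the sources used here. Gene IDs without version were matched to GENCODE 44 symbols (56948 of 58037). The members and lists were chosen with earlier results of these data known.

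A gene was kept in a comparison when 3 or more of its libraries held 10 or more counts. Each comparison was fitted with edgeR 4.0.16 (quasi-likelihood test, TMM normalization, R 4.3.3), DOX against vehicle within each line, vehicle libraries between lines, and the interaction over all 12. Benjamini-Hochberg adjusted p under 0.05 was a call. CPM was computed with TMM-scaled library sizes. The fits were tried on simulated data that held no division like that of the LNCaP-AI libraries, so their behaviour under it was not tested. Alternatives were DESeq2 1.42.0, other scaling and filters, a replicate block, a shared fit, the LNCaP-AI side as covariate, and leaving out each library. Samples with the same number did not deviate together (correlations from -0.0912 to 0.127 in DU-145 and from -0.9404 to -0.812 in LNCaP-AI).

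Named genes were the 10 members, MUC1, MYC, up to 4 called genes per list and comparison by smallest adjusted p, and the 3 genes most like each member. Total counts were from 10423437 to 26961777 per library.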

Additional observations from a re-analysis of the deposited data

Results flagged for a closer look

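The DOX effects in the 2 lines differed by the interaction test for 2 of the genes. For CCND1 the effect was 0.66 log2 units higher in LNCaP-AI than in DU-145, with all 3 DOX libraries above all 3 vehicle libraries in LNCaP-AI and overlapping groups in DU-145. For CCND3 the difference was -0.60, with all 3 DOX libraries above all 3 vehicle libraries in DU-145 and overlapping groups in LNCaP-AI. No group had enough libraries for a test of single outlying samples.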

How the results depend on the processing

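In DU-145 the number of called cyclins and CDKs was 6 and lay between 5 and 6 under each alternative tried. In LNCaP-AI it was 6. The same 6 were called with the side as covariate and in the shared fit, and DESeq2 kept them and added CDK4. Upper-quartile scaling lost 1 of these calls and fitting without a filter lost 2. The number became 0 with a replicate block in edgeR, where 6 had an unadjusted p under 0.05. It ranged from 0 to 4 when 1 library was left out, and calls over all genes in those fits are not given here. For the interaction it was 2 and became 1 without a filter, 0 with the replicate block (4 at an unadjusted p under 0.05), 5 with the side as covariate and 7 with side A alone, and ranged from 1 to 4 with 1 library left out. At baseline it was 5, 4 with the replicate block, and from 3 to 6 with 1 library left out. Same-numbered samples did not deviate together, and in LNCaP-AI each number joined a side A and a side B library, with correlations from -0.9404 to -0.812. Why calls were lost under the block was not tested. The fits within sides A and B were added after the data were seen.

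Signs turned in edgeR for genes not called over all libraries. CCNE2 in DU-145 was at -0.0018 with upper-quartile scaling and from -0.0335 to 0.0632 with 1 library left out. In LNCaP-AI, CDK6 was at 0.0057 with the side as covariate and 0.21 with side A alone, CCND2 from -0.6695 to 0.1023 with 1 library left out, the highest without DOX 1, and CCND3 at 0.0068 with side B alone. The interaction of CDK6 was at 0.43 with the covariate and was called there, with a sign opposite to that over all libraries. It was at 0.63 and 0.28 with sides A and B, and from -0.5903 to 0.2052 with 1 library left out. That of CCNA2 was at 0.29 with side B, and CDK6 at baseline at -0.91 with side A. The genes called over the whole table numbered 7033 in DU-145 and 4083 in the shared fit, 2043 in LNCaP-AI against 3517 in DESeq2, 3933 in the shared fit, 6271 with the covariate, 7486 with side A alone and 0 with the block, and 1543 for the interaction against 884 without a filter, 4109 with the covariate and 52 with the block. The cause of these shifts was not tested. CCND2, with at most 19 counts in a library, is the member that depth limits most.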
